A study of Mus musculus with 2 samples.

Results

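The genes described here are Id1, Id2, Id3 and Id4, the 4 members of the Id family, out of 31053 genes in the series. They were chosen as a gene family by name, with earlier results of these data known. Id proteins hold a helix-loop-helix domain but no basic region, so they bind other helix-loop-helix factors, mainly the E proteins Tcf3, Tcf4 and Tcf12, without binding DNA themselves. E proteins paired with Id proteins cannot pair with tissue factors such as Myod1 or Tal1, and Id genes are known for holding back differentiation. Id1, Id2 and Id3 are well-known direct targets of bone morphogenetic proteins (BMPs), which signal through receptor kinases to SMAD1, SMAD5 and SMAD9. BMP4 is made by the mesenchyme around the dorsal aorta, where hematopoietic stem cells arise.

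The study profiled single cells of the aorta-gonads-mesonephros region (AGM) of mouse embryos at embryonic day 11 with the droplet-based 10x Chromium 3′ method. One library came from PDGFRB +/+ (WT) and one from PDGFRB -/- (KO) AGMs, with PDGFRβ mice kept as heterozygotes on a C57BL/6J background and no other allele or agent named for either group. The KO embryos carried the null allele in all of their cells and not in one cell type. AGMs were dissociated with collagenase and loaded for a recovery of 7000 cells, and no number of pooled embryos was given for either library in the sources used here. With 1 library per genotype there is no replicate, no test was made, and all intervals below are 95% intervals for counting error only.

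The libraries held 179743201 (WT) and 174597654 (KO) UMIs, that is, distinct captured RNA molecules, and 8253 and 8165 barcodes passed 2000 UMIs with under 10% mitochondrial UMIs. Levels are given as CPM, the UMIs of a gene scaled to the total UMIs of the same cells. Pdgfrb stood at 43.1 CPM in WT and 7.09 in KO, with a UMI in 33.8% and 9.81% of cells, so its 3′ end was still counted in the library labelled KO. Xist was at 793 and 0.415 CPM and the Y-linked Ddx3y at 0.00666 and 56.7, so sex, library and genotype changed together and cannot be told apart in any comparison between WT and KO. The tissue in the libraries differed as well. The stomach and spleen mesenchyme gene Barx1 stood at 163 CPM in the splanchnic mesenchyme class of WT and at 1.78 in that of KO, and the pancreatic genes Ctrb1 and Cpa1 were among the 10 leading genes of the coelomic class in KO. The libraries shared 20 of the barcodes used, of which 1 fell in the same class in both.

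Cells were put in a class when at least 3 of its 6 to 8 markers had a UMI and no other class had as many. This left 4851 WT and 4716 KO cells in 11 classes with at least 50 cells in each library. Each class is called after its markers (endothelial-like, mural-like and so on), and the suffix is mostly left out below. Among the 10 genes that led a class by fold, the WT macrophage class held Cpa3, a mast cell marker, beside 3 of its own markers, and no other class held a marker of another. The mural class was the least distinct, its own markers summing to 714 CPM in WT and 718 in KO and those of the next list to 542 and 407. A further 3372 WT (40.9%) and 3412 KO cells (41.8%) were in no class, 2862 and 2948 of them for having under 3 markers of any class.

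The promoters show where the 3 genes that the RefSeq table matched (Id2, Id3 and Id4) carry GGCGCC, a motif that BMP-activated SMADs bind, searched on both strands in the 250 bases before the RefSeq start site. Id2 lies on chr12:25093799-25097140 (minus strand), Id3 on chr4:136143497-136145755, Id4 on chr13:48261228-48266026 and Id1 on chr2:152736251-152737410 (all plus strand, GRCm38). GGCGCC occurred once in the Id2 window, 231 bases before the start, once in the Id4 window, 148 bases before it, and not in that of Id3, while 9.59% of 32851 promoter windows of this length held it. The motif's surroundings, with the motif in capitals, are shown for the pair that carries it. The Id2 stretch is chr12:25096306-25096335 on the minus strand and the Id4 stretch chr13:48260956-48260985 on the plus strand, both outside the exons of the GENCODE gene models. All 250 bases of the Id3 window and 161 of those of Id2 lay within exons of GENCODE transcripts that start earlier.
Id2: tcaggccccctgGGCGCCcagcgcacactg
Id4: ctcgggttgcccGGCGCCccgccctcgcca

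The whole Id4 window is shown because its base composition stood apart from the others. It spans chr13:48260866-48261115 (GRCm38.p6, RefSeq, plus strand, no base in a GENCODE exon) and was 75.6% G or C, against 62.8% in both Id2 and Id3 and a median of 52.4% over all windows. The capitals mark GGCGCC.
Id4: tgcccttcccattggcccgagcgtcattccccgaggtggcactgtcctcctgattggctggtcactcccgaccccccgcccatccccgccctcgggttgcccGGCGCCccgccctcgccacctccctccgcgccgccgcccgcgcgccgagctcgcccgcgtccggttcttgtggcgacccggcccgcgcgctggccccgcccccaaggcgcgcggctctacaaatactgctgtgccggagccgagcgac

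Other motifs, searched on both strands too, were spread differently over the 3 windows. The E-box CANNTG, which E proteins bind, occurred once in the Id2 window and in neither of the others, and 66.2% of all windows held at least 1. CCAAT occurred 3 times in Id2, 2 times in Id4 and not in Id3, and 33.8% of all windows held it. TATAAA was in none of the 3, and 12.4% of all windows held it.

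Over all cells of a class, each Id gene was led by a different class in the WT AGM. Id1 was highest in the coelomic epithelium and gonadal ridge class, Id2 in splanchnic mesenchyme, Id3 in Schwann precursor-like cells and Id4 in mural cells, the contractile cells of vessel walls. Id1 was the most even and Id4 the most uneven. Over the median class, the highest class stood 0.39 higher on the log2 scale for Id1 (0.28 to 0.50), 0.86 for Id2 (0.80 to 0.91), 0.87 for Id3 (0.81 to 0.94) and 1.75 for Id4 (1.55 to 1.95). Erythroid cells had the lowest CPM of all 4 genes, between 7.96-fold (Id1) and 15.2-fold (Id4) under the highest class. In the 4 leading classes, from 67.1% (coelomic) to 87.6% (mural) of WT cells also had UMIs of at least 2 markers of a second class. Without such cells Id1 was at 155 CPM in the coelomic class and 245 in mural cells. Id3 was then at 1522 in Schwann precursor-like and 1537 in mural cells. Few cells were left, since 276 of 315 mural and 126 of 176 Schwann precursor-like cells were taken out. The mural class then fell under the minimum of 50 cells, and these values have no intervals. No leading class is read from them for Id1 or Id3. Id2 in splanchnic mesenchyme (486) still led, and Id4 had its highest value in mural cells (55.4), on the same few cells. Levels of different Id genes are not compared with one another, since a 3′ count depends on each gene's own transcript end.

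Id1, a BMP target found in many dividing tissues, was at 190 CPM in the WT coelomic class (178 to 202), 168 in splanchnic mesenchyme, 167 in body wall mesenchyme, 156 in Schwann precursor-like cells, 147 in mural cells and 145 in sclerotome. It was at 140 CPM in endothelial cells, 130 in skeletal muscle cells, 114 in autonomic neuron-like cells, 33.5 in macrophages and 23.8 in erythroid cells. From splanchnic mesenchyme down to autonomic neuron-like cells, none of the 7 neighbouring pairs in that order differed beyond counting error, so the solid tissues formed 1 gentle slope with the coelomic class above it and both blood classes far below. In KO the order changed at the top. Body wall mesenchyme led with 262 CPM (255 to 269), followed by mural cells (204), sclerotome (199), splanchnic mesenchyme (187), Schwann precursor-like cells (181), the coelomic class (179), endothelial cells (173) and muscle cells (162). Autonomic neuron-like cells (119), macrophages (66.5) and erythroid cells (39.1) stood at the bottom, as in WT, and 5 of the 10 neighbouring pairs did not differ beyond counting error.

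Id2, which is also required for innate lymphoid and other blood lineages, was at 415 CPM in splanchnic mesenchyme of WT (407 to 424) and 416 in that of KO (406 to 426), the highest class in both. Body wall mesenchyme followed with 276 in WT and 358 in KO. The coelomic class (247), Schwann precursor-like cells (244), autonomic neuron-like cells (238), sclerotome (229) and mural cells (218) came next in WT, and no neighbours among these 5 differed beyond counting error. Muscle cells (174), endothelial cells (140) and macrophages (134), the last pair not apart, were lower and erythroid cells were lowest at 43.2. In KO the mural class took the next place at 284, Schwann precursor-like cells, autonomic neuron-like cells and sclerotome lay at 224, 223 and 221, and the coelomic class at 195. Macrophages (190), muscle cells (171), endothelial cells (127) and erythroid cells (55.9) closed the KO order, in which 3 neighbouring pairs did not differ.

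Id3 had the most UMIs of the 4 genes, 94132 in all WT cells and 91622 in all KO cells, so its counting intervals were the narrowest, and 8 of 10 neighbouring pairs in WT and 9 of 10 in KO were apart by more than counting error. In WT it was at 1120 CPM in Schwann precursor-like cells (1092 to 1150), 933 in mural cells, 729 in sclerotome, 672 in splanchnic mesenchyme, 629 in body wall mesenchyme, 612 in endothelial cells and 570 in the coelomic class. Autonomic neuron-like cells, which descend from the neural crest as Schwann precursors do, stood far lower at 476, beside muscle cells at 471, macrophages at 200 and erythroid cells at 102. In KO mural cells came first with 1159 CPM (1135 to 1183) and Schwann precursor-like cells next with 952. The KO levels were 711 in body wall mesenchyme, 704 in endothelial cells, 662 in sclerotome, 595 in splanchnic mesenchyme, 420 in muscle cells, 369 in the coelomic class, 271 in autonomic neuron-like cells, 169 in macrophages and 91.3 in erythroid cells.

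Id4, known from neural precursors and spermatogonia, was sparse, with 3017 UMIs in all WT cells and 3409 in all KO cells. Its highest and lowest classes lay farthest apart, 15.2-fold in WT and 25.1-fold in KO, while few UMIs set its neighbours apart. In WT it was at 54.4 CPM in mural cells (49.7 to 59.3), 35.4 in Schwann precursor-like cells (30.4 to 41.0), 25.5 in splanchnic mesenchyme, 21.0 in sclerotome, 18.7 in the coelomic class, 16.2 in body wall mesenchyme and 15.6 in autonomic neuron-like cells. Endothelial cells (7.09), muscle cells (4.03), macrophages (3.89) and erythroid cells (3.58) were the low classes, and 6 of the 10 neighbouring pairs did not differ. Of the Id4 UMIs in WT Schwann precursor-like cells, 95.6% lay in cells carrying markers of a second class, and the others were at 9.86 CPM. In KO mural cells again led with 57.9 CPM (52.6 to 63.7), followed by sclerotome (35.8), splanchnic mesenchyme (28.6), the coelomic class (18.1), body wall mesenchyme (17.2) and Schwann precursor-like cells (13.9). Muscle cells (10.9), autonomic neuron-like cells (9.53), macrophages (5.38), erythroid cells (2.80) and endothelial cells (2.31) came last, with 7 neighbouring pairs not apart.

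**Figure D1:**
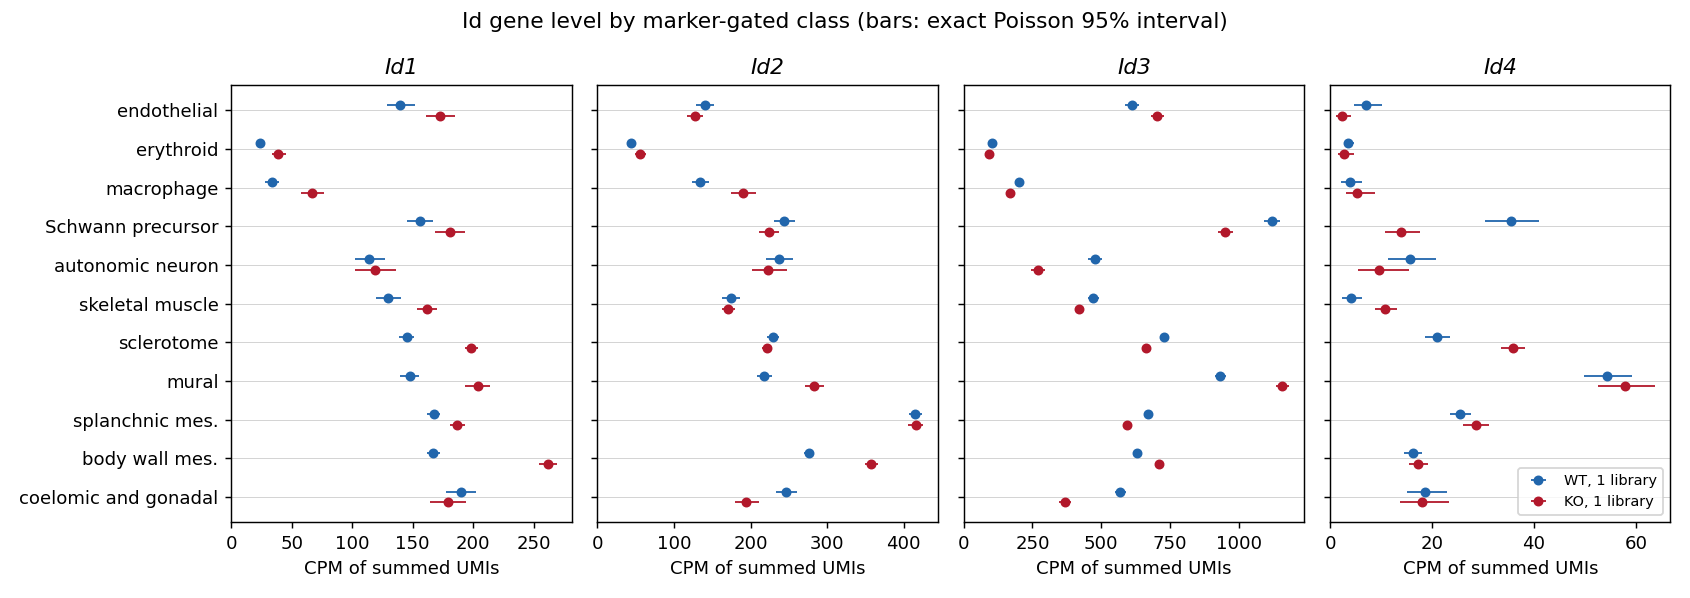
Level of Id1, Id2, Id3 and Id4 in the 11 marker-gated classes, one panel per gene, as CPM of the summed UMIs (horizontal axis, from 0, with a different range in each panel). Blue points are the WT library and red points the KO library, and bars are exact Poisson 95% intervals. Splanchnic mesenchyme leads Id2 at 415 and 416 CPM, mural cells lead Id4 at 54.4 and 57.9 CPM, and both blood classes lie at the left of nearly every panel.

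The place of the erythroid class at the bottom depended on the scaling. Hemoglobin RNA fills much of an erythroid cell's library, and the TMM normalization factors (edgeR) of the erythroid class were 0.336 in WT and 0.335 in KO, against 0.957 to 1.23 in the other classes. With those factors, WT erythroid cells were at 70.9 (Id1), 129 (Id2), 303 (Id3) and 10.6 (Id4) CPM, and macrophages were lowest for Id1 at 35.0 and Id3 at 209 and muscle cells for Id4 at 3.75. In KO macrophages were then lowest for Id1 (69.4) and Id3 (176), and endothelial cells for Id2 (128) and Id4 (2.32). The highest class of each gene was the same with both scalings in both libraries.

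At an equal depth of 2000 UMIs per cell the levels were also taken as shares of cells. A UMI of Id1 was found in 22.2% of WT cells (21.3 to 23.1) and 28.6% of KO cells (27.6 to 29.6), against 59.6% and 68.5% before thinning. In erythroid cells, the class with the lowest CPM, the thinned share was 3.49% in WT (2.29 to 5.07) and 4.02% in KO. Id3 was found in 84.7% of WT Schwann precursor-like cells and 79.0% of mural cells, against 9.66% of erythroid cells, and Id2 in 49.3% of splanchnic mesenchyme cells against 3.36%. Id4 reached only 9.52% of mural cells (6.52 to 13.3) against 0.671% of erythroid cells. Erythroid cells did not have the lowest share of every gene, since that of WT macrophages was 2.97% for Id1 and 0.495% for Id4, and no thinned WT endothelial or muscle cell had an Id4 UMI, which allows shares of up to 2.74% and 2.1% (upper bounds of the exact intervals). The unthinned median depths of the WT erythroid, mural, splanchnic and Schwann precursor-like classes were 16841, 19699, 16221 and 22818 UMIs. Barcodes with at most 100 UMIs, which hold free RNA, had 131 (Id1), 205 (Id2), 638 (Id3) and 18.9 CPM (Id4) in WT and 150, 240, 648 and 21.2 in KO, close to the levels of 141, 252, 627 and 20.1 over all WT cells and well above those of the erythroid class.

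Most Id UMIs of the erythroid class sat in a small set of cells that also carried markers of another class. In the erythroid class 103 of 745 WT cells (13.8%) and 33 of 224 KO cells (14.7%) had UMIs of at least 2 markers of a second class. They held 22.4% of all UMIs of the class in WT and 26.0% in KO, and 79.0% of the Id1 UMIs of that class in WT and 89.7% in KO, 85.3% and 89.2% of those of Id2, 81.5% and 82.9% of those of Id3 and 86.0% and 78.6% of those of Id4. The other erythroid cells were at 6.46 (Id1), 8.21 (Id2), 24.3 (Id3) and 0.646 CPM (Id4) in WT and at 5.41, 8.12, 21.1 and 0.812 in KO, so outside that set the level of each gene was low in both libraries. Whether those cells are doublets was not tested, and doublets were left in.

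In macrophages the cells with second-class markers were no small set, being 74 of 202 in WT (36.6%) and 40 of 163 in KO (24.5%) and holding 53.9% and 41.7% of all UMIs of the class. Id1, Id3 and Id4 were much lower in the other macrophages, and Id2 less so. Without second-class markers, macrophages were at 7.89 CPM for Id1, 73.7 for Id3 and 0.526 for Id4 in WT and at 17.9, 60.5 and 2.31 in KO, against 55.5, 309 and 6.76 in the 74 WT cells with such markers and 135, 321 and 9.67 in the 40 KO cells. Id2 was at 94.2 CPM in the WT macrophages without a second class and 168 in those with one, and at 161 and 231 in KO. Id2 was therefore the Id gene whose UMIs were least tied to such cells in macrophages, with 67.6% of them there in WT and 50.7% in KO, against 89.1% and 84.3% for Id1.

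**Figure D2:**
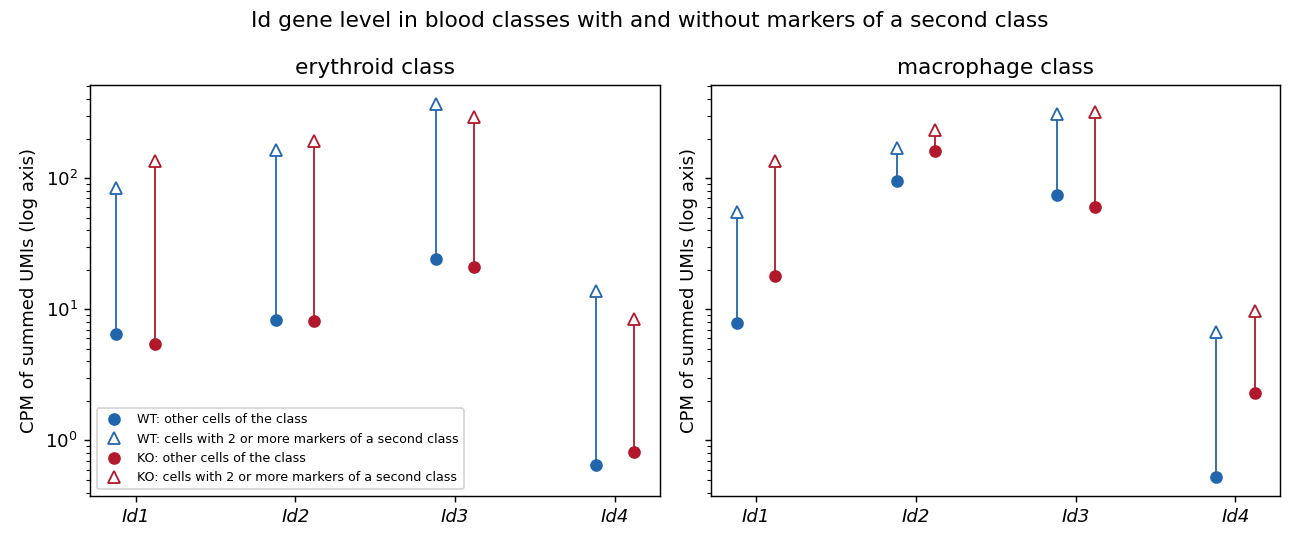
CPM of the Id genes (vertical log axis) in the erythroid class (left) and the macrophage class (right), for cells with UMIs of at least 2 markers of a second class (open triangles) and the other cells of the class (filled circles), in WT (blue) and KO (red), 1 library each. Lines join the values of 1 library. In WT erythroid cells Id1 goes from 6.46 CPM to 83.9 and in WT macrophages Id2 from 94.2 to 168.

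Skeletal muscle allowed a comparison within a lineage, since Id proteins keep E proteins from myogenic factors such as Myod1. Cells with Myog, the factor of committed myoblasts, were set against muscle cells with Pax7 or Myf5 and no Myog, the progenitor genes. In KO all 4 genes were lower in the Myog cells (305 cells against 104 cells, median depths of 19009 and 18912 UMIs). Id1 was at 147 against 210 CPM (log2 difference -0.52, -0.68 to -0.36), Id2 at 155 against 222 (-0.52, -0.68 to -0.36), Id3 at 367 against 592 (-0.69, -0.79 to -0.59) and Id4 at 9.13 against 16.6 (-0.86, -1.48 to -0.23). In WT, with 128 and 44 cells, Id3 was again lower (449 against 554 CPM, -0.30, -0.44 to -0.17), Id1 was at 124 against 149 (-0.27, -0.53 to 0.0011), and Id2 was at 175 against 165 (0.084, -0.16 to 0.33). At 2000 UMIs per cell the share of cells with Id3 was 45.3% in Myog cells against 65.9% in the others in WT and 43.0% against 60.6% in KO. The shares with Id1 in KO, 25.2% against 24.0%, went against the CPM, so no order is read for Id1. Id3 was the gene whose values were lower in Myog cells by both measures in both libraries. Its shares are given without intervals, and those of WT rest on 128 and 44 cells.

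Endothelial cells were parted by Kit, a receptor of the intra-aortic hematopoietic clusters and of emerging hematopoietic cells. In WT 60 cells with a Kit UMI had 123 CPM of Id1 against 170 in 73 cells with neither Kit nor Ptprc (-0.46, -0.71 to -0.22), 570 against 687 of Id3 (-0.27, -0.39 to -0.15), and 161 against 102 of Id2 (0.66, 0.39 to 0.94). In KO, with 49 and 60 cells, Id3 was again lower in Kit cells (671 against 763 CPM, -0.19, -0.29 to -0.085), and Id1 (0.074, -0.14 to 0.29) and Id2 (0.12, -0.12 to 0.37) did not differ beyond counting error. The Kit cells were far deeper, with medians of 41949 against 12206 UMIs in WT and 52521 against 15302 in KO, and a Kit UMI is found more easily in a deep cell. At 2000 UMIs per cell the WT share with Id2 was 30% (18.8 to 43.2) against 19.2% (10.9 to 30.1), intervals that overlap, and the KO share with Id3, 63.3% against 60%, went against the CPM, so no order between these cells is read.

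In the WT mesenchyme, cells were also parted by the PDGFRβ and NG2 genes, Pdgfrb and Cspg4, as DP (both, 317 cells), PDGFRβ-S (1176 cells), NG2-S (157 cells) and DN (1517 cells). Id4 was higher in the cells with Cspg4. It was at 44.0 CPM in DP and 43.6 in NG2-S cells, against 20.04 in PDGFRβ-S and 21.5 in DN cells, a log2 difference of 1.13 for DP over PDGFRβ-S (0.96 to 1.31) and of 1.02 for NG2-S over DN (0.73 to 1.31). Id2 ran the other way, at 224 CPM in DP, 294 in NG2-S, 315 in PDGFRβ-S and 328 in DN cells, with a log2 difference of -0.56 for DP over DN (-0.62 to -0.49). Id1 (143, 168, 161 and 166 CPM in the same order) and Id3 (769, 736, 689 and 695) varied less. Cspg4 is one of the markers that define the mural class, so DP and NG2-S cells overlap with that class by construction.

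Between the libraries, Id1 was higher in KO in 10 of the 11 classes, Id3 lower in 8, and Id2 and Id4 went either way. The study reported Id1, Id2 and Id3 as significantly lower, and Id4 as not, in the KO cluster matching its WT PDGFRβ-positive cells. It compared single cells by a rank test, so its cells and measure differ from the class sums here. The study also removed KO cells with detected Pdgfrb, and its cluster held some DN cells. The direction of Id1 differed from that in the study, while Id3 was lower here too in most classes. Why the direction of Id1 differs was not tested. A class ratio was counted as past the threshold when KO and WT differed by more than 1.5-fold, among genes with at least 20 UMIs in both libraries together. Over the 44 pairs of a member and a class, 5 were past 1.5-fold higher in KO (11.4%) and 5 lower (11.4%), against 6.83% higher and 8.42% lower over all 131554 gene and class pairs tested. Both counts are near the share among genes with at least 20 UMIs, a share that takes in genes with few UMIs. Every pair of Id1, Id2 and Id3 had more than 200 UMIs. Among genes with at least 200 UMIs the share by class was 1.17% to 4.07% higher and 1.79% to 9.1% lower. By class the share of genes higher was 4.75% in endothelial, 8.4% in erythroid, 6.25% in macrophage, 8.3% in Schwann precursor-like, 6.78% in autonomic neuron-like, 5.84% in muscle, 10.6% in sclerotome, 5.89% in mural, 5.35% in splanchnic, 6.52% in body wall and 6.26% in coelomic cells. The share lower, in the same order, was 11.4%, 15.1%, 8.14%, 5.51%, 12.5%, 8.43%, 3.64%, 6.9%, 5.98%, 7.48% and 10.2%. The median log2 ratio of all genes lay between -0.091 and 0.086 in every class.

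For Id1 the mean of the class log2 ratios, each class weighted equally, was 0.38 (0.33 to 0.44). Among 9103 genes with at least 20 UMIs in each class, 98.5% had a lower mean, with a median of -0.00068, and 11.5% of these genes were higher in KO in 10 or more classes. The 3 ratios past 1.5-fold were in macrophages (0.99, 0.67 to 1.31, from 33.5 to 66.5 CPM), erythroid cells (0.71, 0.45 to 0.97) and body wall mesenchyme (0.65, 0.59 to 0.71, from 167 to 262 CPM). The backgrounds in these classes were 6.25%, 8.4% and 6.52% of genes. Mural cells (0.47), sclerotome (0.45), muscle (0.32), endothelial cells (0.30), Schwann precursor-like cells (0.21) and splanchnic mesenchyme (0.16) were higher by less, each with an interval above 0. Autonomic neuron-like cells (0.054, -0.21 to 0.31) and the coelomic class (-0.084, -0.24 to 0.067) did not differ beyond counting error.

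Several of these Id1 ratios rested on few cells. In the erythroid class 5 KO cells with a Pdgfrb UMI held 58.5% of the 195 Id1 UMIs. The ratio there was -0.46 without KO cells that had a Pdgfrb UMI, as the study removed them, and -0.25 without cells carrying second-class markers. The Pdgfrb filter took cells from KO only, so WT and KO were not filtered alike. In WT, 34 erythroid cells with a Pdgfrb UMI stayed in and held 45.3% of the Id1 UMIs of the class. In endothelial cells it was -0.58 without the latter and -0.27 at equal depth, and in autonomic neuron-like cells, with a median depth of 25028 UMIs in WT and 8731 in KO, it was -0.46 at equal depth. In macrophages it was 1.18 without second-class cells, from 7.89 to 17.9 CPM, and 1.97 at equal depth. Body wall mesenchyme (0.50), sclerotome (0.50), muscle (0.34) and splanchnic mesenchyme (0.33) were still above 0 without those cells, and the mean of the classes left was 0.29. The mean was 0.25 without the KO cells with a Pdgfrb UMI and 1.00 with a limit of 5% mitochondrial UMIs, which left 6 classes.

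Id3 had a mean class ratio of -0.17 (-0.20 to -0.14), with 19.3% of the 9103 genes lower, and 28.2% of them were higher in KO in 3 classes or fewer, as it was. Its intervals lay below 0 in 8 classes and above 0 in 3, and the 3 were mural cells (0.31, 0.27 to 0.36), endothelial cells (0.20) and body wall mesenchyme (0.18). Autonomic neuron-like cells (-0.82, -0.97 to -0.66, from 476 to 271 CPM) and the coelomic class (-0.63, -0.73 to -0.53, from 570 to 369) were past 1.5-fold lower, against backgrounds of 12.5% and 10.2% of genes. At equal depth these ratios were -0.47 and -0.35, neither of them past 1.5-fold. The mean was 0.15 with the 5% limit on mitochondrial UMIs. The smaller differences were -0.25 in macrophages, -0.23 in Schwann precursor-like cells, -0.17 in splanchnic mesenchyme and in muscle, -0.16 in erythroid cells and -0.14 in sclerotome. Both of the strongest differences fell in classes that differed between the libraries. The coelomic class differed by its pancreatic genes, and the neuron class by depth and by cells with second-class markers. Such cells were 63.4% of WT and 34.8% of KO autonomic neuron-like cells. Beyond the values at equal depth, the part of these differences in the ratios was not tested.

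Id2 had a mean class ratio of 0.078 (0.037 to 0.12), with 68.0% of genes lower, and no class passed 1.5-fold. It was higher in KO in macrophages (0.50, 0.33 to 0.68), mural cells (0.38), body wall mesenchyme (0.37) and erythroid cells (0.37), and lower in the coelomic class (-0.34, -0.49 to -0.20) and Schwann precursor-like cells (-0.13, -0.24 to -0.0058). In splanchnic mesenchyme, where Id2 was highest, the ratio was 0.0025 (-0.042 to 0.047), beside the difference in Barx1 there. The mean was -0.061 without cells carrying second-class markers and 0.38 with the 5% mitochondrial limit, so its sign depended on the cells used. It was -0.0033 without KO cells with a Pdgfrb UMI, a filter that left such WT cells in.

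Id4 had a mean class ratio of -0.097 (-0.29 to 0.094) made of opposite class values. The mean was 0.89 with a limit of 5% mitochondrial UMIs (6 classes left) and 0.37 without cells carrying second-class markers (8 classes left). In the latter setting KO endothelial cells had no Id4 UMI, so that class gave no ratio and is left out of the 0.37. Macrophages entered it with 0.526 CPM in WT and 2.31 in KO. The sign of the 0.37 is therefore not read. It was higher in KO in muscle (1.43, 0.72 to 2.23), from 19 UMIs in WT to 100 in KO, and in sclerotome (0.77, 0.58 to 0.96, from 21.0 to 35.8 CPM). It was lower in endothelial cells (-1.62, -2.77 to -0.58), on 29 and 11 UMIs, in Schwann precursor-like cells (-1.35, -1.78 to -0.94, from 35.4 to 13.9 CPM) and in autonomic neuron-like cells (-0.71, -1.63 to 0.13), where the interval reached past 0. The backgrounds were 5.84% and 10.6% higher and 11.4%, 5.51% and 12.5% lower in the same order. The mural class, where Id4 was highest, had a ratio of 0.092 (-0.096 to 0.28). Without cells carrying second-class markers the muscle ratio was -0.46 and that of Schwann precursor-like cells -0.58. Both rest on few UMIs and have no interval. The cells taken out held 12 of 19 WT and 89 of 100 KO Id4 UMIs in muscle. In Schwann precursor-like cells they held 172 of 180 and 60 of 66. A single WT Schwann precursor-like cell had 33 of the 180 Id4 UMIs. The sclerotome ratio was 0.82 without cells carrying second-class markers and 1.22 at equal depth.

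**Figure D3:**
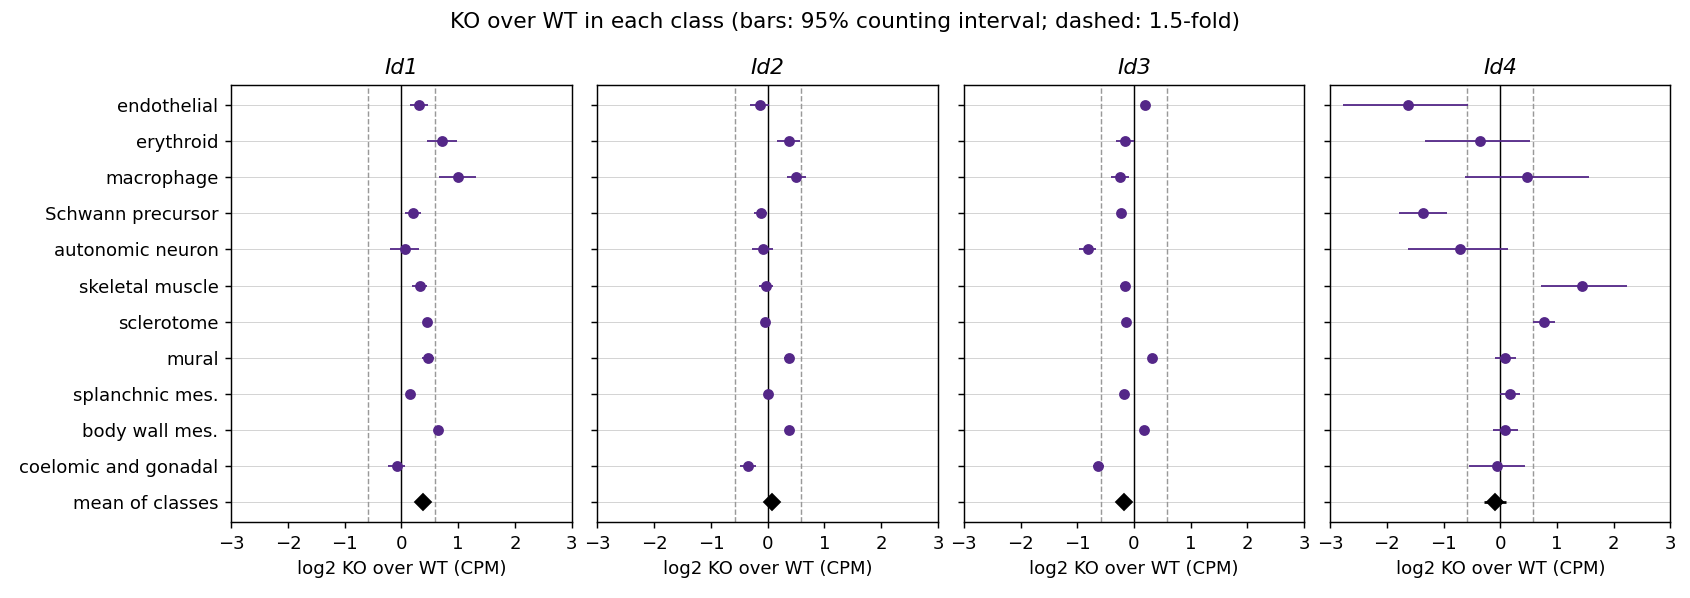
Log2 ratio of KO over WT CPM (horizontal axis) for each Id gene in the 11 classes, 1 library per genotype. Points are class ratios with 95% counting intervals, black diamonds the mean of the classes with equal weight, and dashed lines the 1.5-fold threshold. Id1 lies right of 0 in 10 classes with a mean of 0.38, Id3 left of 0 in 8 with a mean of -0.17, and Id4 spreads from -1.62 in endothelial cells to 1.43 in muscle.

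Cells in no class gave the same contrast for Id1. Its level there was 155 CPM in WT and 209 in KO (log2 ratio 0.44, 0.39 to 0.48). Id2 was at 273 and 312 (0.19, 0.15 to 0.23), Id3 at 697 and 683 (-0.028, -0.052 to -0.0043) and Id4 at 20.2 and 23.5 (0.22, 0.084 to 0.36).

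Of the other BMP response genes, Smad6, Msx1, Msx2 and Bambi were mostly lower in KO, Smad7 was mostly higher and Atoh8 went either way. Of the 64 gene and class pairs tested for Smad6, Smad7, Msx1, Msx2, Bambi and Atoh8, 3 were past 1.5-fold higher and 25 lower (39.1%), against 8.42% lower over all genes. Smad6, an inhibitory SMAD, was lower in KO in all 11 classes and past 1.5-fold in 6, with a median log2 ratio of -0.59, for instance 16.8 and 11.3 CPM in body wall mesenchyme (-0.57, -0.82 to -0.32). Msx1, a homeobox gene of the body wall and limb mesenchyme, was past 1.5-fold lower in 7 of 11 classes (median -0.99), for instance 46.9 and 26.0 CPM in splanchnic mesenchyme (-0.85, -1.01 to -0.69). It was past 1.5-fold higher in erythroid cells (1.78), where its WT level was the lowest of all classes at 6.37 CPM. Msx2 was lower in 5 of 9 classes (median -0.88), and Bambi, a decoy receptor of the pathway, in 5 of 11 (median -0.48). Smad7, the other inhibitory SMAD, had a median of 0.28 and was past 1.5-fold higher in macrophages (0.87) and past 1.5-fold lower in no class. Atoh8 had a median of 0.0011 and 2 classes lower. Ratios of these genes and of the pathway genes below were taken over all cells of a class. They were not repeated without cells carrying markers of a second class, which held most Id UMIs of every class in both libraries. In the classes outside blood such cells also held most of all UMIs. For instance, they held 93.6% of all UMIs and 89.4% of those of Id1 in WT mural cells, and 84.5% and 85.1% in WT splanchnic mesenchyme.

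Ratios of opposite sign were found within the same class. In body wall mesenchyme the log2 ratio was 0.65 for Id1, -0.71 for Bambi (132 and 80.6 CPM) and -0.52 for Msx1 (117 and 81.5 CPM). In autonomic neuron-like cells Id3, Msx1, Bambi and Smad6 were all past 1.5-fold lower, at -0.82, -1.94, -0.97 and -1.12. Cells with second-class markers were 63.4% of this class in WT and 34.8% in KO, and its median depth was 25028 and 8731 UMIs. At equal depth the Id3 ratio was -0.47. The part of these differences in the ratios of the other genes was not tested. The comparisons share the same 2 libraries, so these values are not independent of one another.

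**Figure D4:**
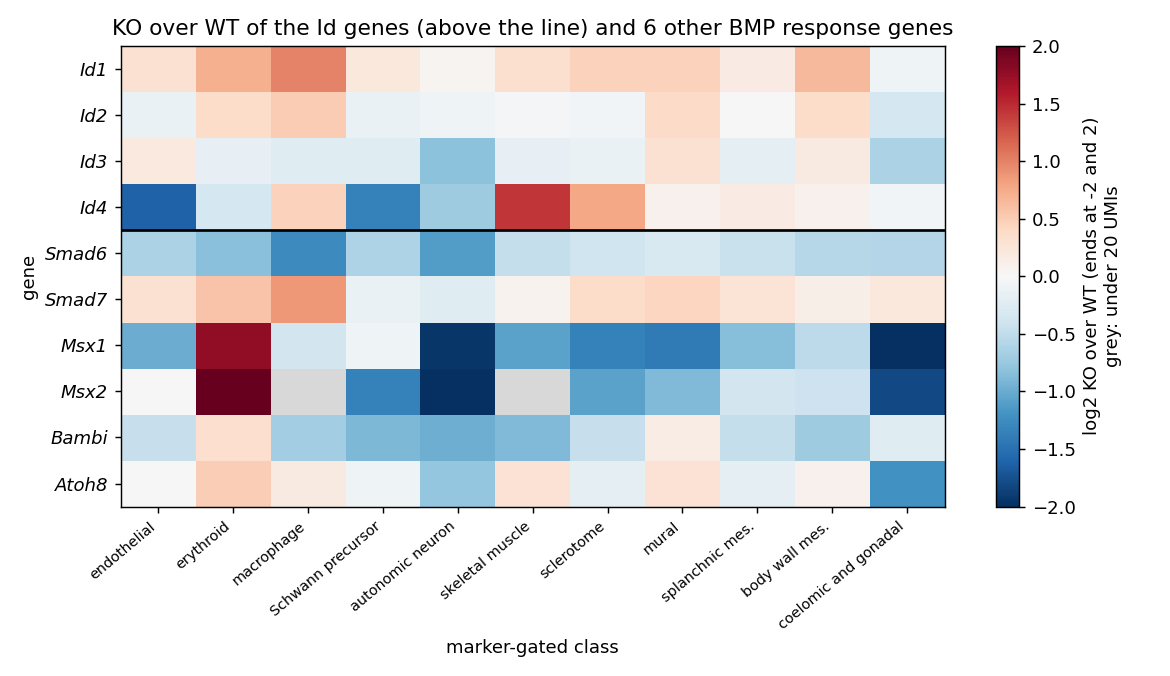
Log2 ratio of KO over WT CPM (colour, ending at -2 and 2, grey where a gene had under 20 UMIs) of the 4 Id genes above the black line and 6 other BMP response genes under it, by marker-gated class, 1 library per genotype. The Id1 line is red in 10 of 11 classes and the Smad6 line blue in all 11, with a median of -0.59.

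The ligands of the pathway were mostly lower in KO where they passed the threshold. Of 42 gene and class pairs for 7 BMP ligands, 3 were higher (7.14%) and 15 lower (35.7%), against 6.83% and 8.42% over all genes. Bmp4 was at 152 CPM in WT and 104 in KO mural cells (-0.55, -0.68 to -0.42), at 111 and 126 in splanchnic mesenchyme (0.19, 0.11 to 0.27), and at 104 and 106 in body wall mesenchyme. It was past 1.5-fold lower in endothelial cells (49.4 and 29.2 CPM), macrophages and autonomic neuron-like cells. Bmp2 was at 29.6 and 4.12 CPM in the coelomic class and at 19.6 and 7.55 in endothelial cells. Gdf2 and Bmp10, the circulating ligands, reached 20 UMIs in no class.

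Fewer pairs passed the threshold among receptors, transducers and E proteins, and all shares here stand beside 6.83% higher and 8.42% lower over all genes. Of 77 receptor pairs 3 were higher (3.90%) and 4 lower (5.19%), of 39 pairs for Smad1, Smad4, Smad5 and Smad9 2 were higher and 0 lower, and of 33 pairs for Tcf3, Tcf4 and Tcf12, the binding partners of Id proteins, 2 were higher and 0 lower. The type 2 receptor Bmpr2 was past 1.5-fold in no class, with a median log2 ratio of 0.094. The antagonists were split, 8 higher (16.3%) and 9 lower (18.4%) of 49, with Fst at 118 CPM in the WT coelomic class as the highest level among them. Of 81 pairs for 12 tissue factors of the helix-loop-helix family, 11 were higher (13.6%) and 24 lower (29.6%), among them Tcf21, a factor of splanchnic mesenchyme, lower in 7 of 11 classes. Myod1, Myf5, Myog, Twist2 and Tcf21 are among the markers that define the classes, so their counts depend on the gate. Myod1 and Myog were each past 1.5-fold higher in 4 classes. The part of the gate in these shares was not tested.

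Over single cells thinned to 2000 UMIs, the pairs among Id1, Id2 and Id3 had higher mean correlations than the pairs with Id4 in both libraries, and at 1000 UMIs this held in WT and not in KO. Each cell was thinned to 2000 UMIs, and Pearson's r of log2(UMIs + 1) was taken within each class over 4851 WT and 4716 KO cells. The cells of a library share its free RNA and its handling. The mean over classes was 0.17 for Id1 and Id3 in WT and 0.20 in KO, 0.17 and 0.18 for Id2 and Id3, and 0.12 in both for Id1 and Id2. Id1 and Id3 were positive in all 11 classes of both libraries, and ranged from 0.078 in macrophages to 0.33 in endothelial cells of WT and from 0.066 in Schwann precursor-like cells to 0.40 in erythroid cells of KO. The last value rests on 5 cells with a UMI of both genes after thinning, in the class where 33 of 224 cells, those with second-class markers, held 89.7% of the Id1 UMIs. For the 3 pairs with Id4 the mean lay between 0.010 and 0.065, and r could be computed in 9 WT and 8 KO classes. Id4 had by far the fewest UMIs of the Id genes, and sparse counts hold r near 0. The part of this sparsity in the lower values with Id4 was not tested. At 1000 UMIs in KO the mean was 0.080 for Id2 and Id4 and 0.047 for Id1 and Id4, above the 0.028 of Id1 and Id2, and 0.063 for Id2 and Id3. In unthinned cells the mean over all 6 pairs was 0.44 in WT and 0.50 in KO, against 0.092 and 0.11 after thinning. The larger unthinned values include the differences in depth between cells.

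These values are small, as sparse counts allow, and their place among all genes is given beside them. Of 4836 genes with enough UMIs in WT and 5081 in KO, Id3 ranked first and Id2 next for Id1 in both libraries. For Id3 the leading pair of genes was Id2 and Id1 in WT and Id1 and Id2 in KO. For Id2, Id3 ranked first in both, and Id1 ranked 3 in WT, after Tcf21, and 4 in KO. The median gene had a mean r of 0.0046 with Id1 in WT. Of the BMP genes, chosen after their values were seen, Smad7 was at place 18 for Id1 in KO and 1175 in WT, and Bmp4 at place 71 for Id2 in WT and 1159 in KO, so neither place was shared by the libraries. For Id4, Id1 ranked 80, Id2 971 and Id3 1648 in WT, and Id2 ranked 80, Id3 169 and Id1 1133 in KO, so in KO the first pair stood high among all genes for Id4 as well.

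At 10000 UMIs per cell, where counts are less sparse and 3951 WT and 3680 KO cells in 10 classes remain, the means of all 6 pairs were larger, and those among Id1, Id2 and Id3 were again above those with Id4. Id1 and Id3 had 0.42 in both libraries, Id2 and Id3 0.35 and 0.34, and Id1 and Id2 0.28 and 0.30. The pairs with Id4 had 0.053 to 0.11 in WT and 0.13 to 0.14 in KO. All 3 pairs among Id1, Id2 and Id3 were positive in all 10 classes of both libraries. The highest value of each of these pairs was in a blood class, where cells with second-class markers held most Id UMIs. In the order above the 3 highest were 0.56, 0.55 and 0.45 in WT, all in erythroid cells. In KO they were 0.69 in macrophages and 0.66 and 0.49 in erythroid cells. The means at 10000 UMIs were not taken without cells carrying second-class markers. The lowest single value was for Id3 and Id4 in WT Schwann precursor-like cells, at -0.42 over 162 cells, against -0.0076 over 145 cells in KO.

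**Figure D5:**
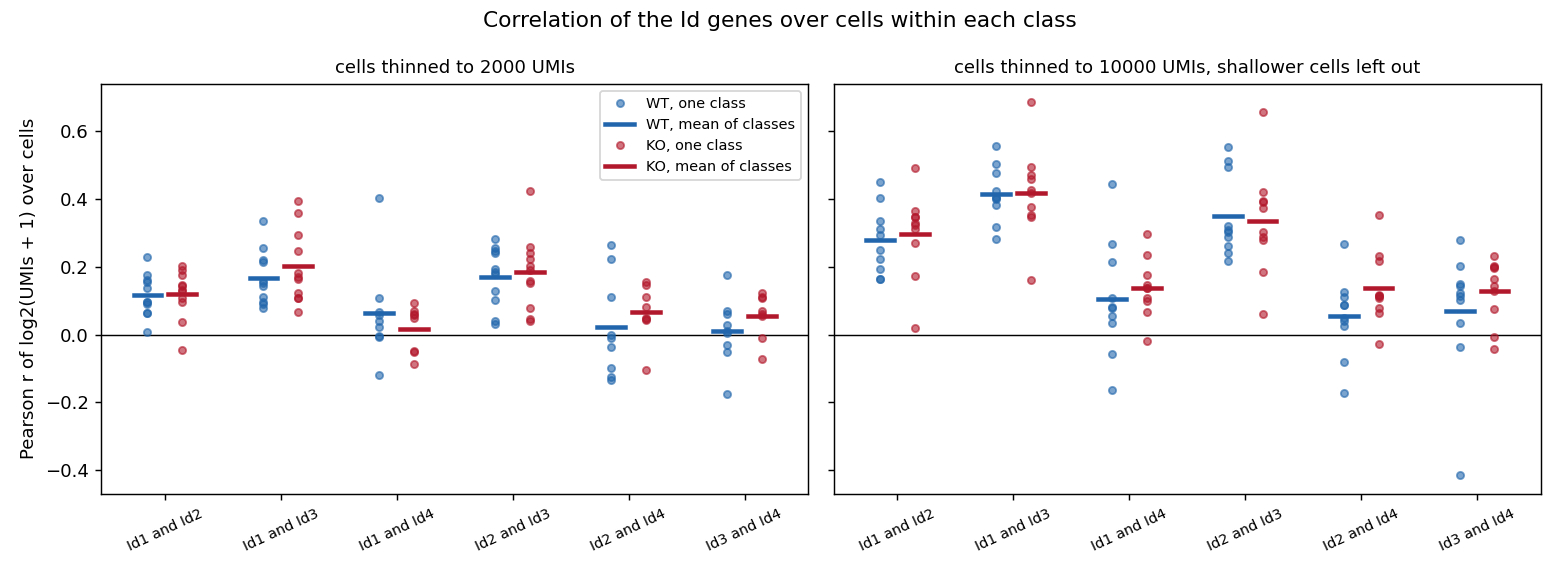
Pearson's r of log2(UMIs + 1) over cells (vertical axis) for the 6 pairs of Id genes, within each class (points) and as the mean of the classes (bars), in WT (blue) and KO (red), for cells thinned to 2000 UMIs (left) and to 10000 UMIs (right). The means of pairs among Id1, Id2 and Id3 lie above those with Id4, while points of single classes overlap. The mean for Id1 and Id3 at 10000 UMIs is 0.42 in both libraries.

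The profiles of some of the genes over the 11 classes were alike in large part through the low blood classes, and those of others were not. Pearson's r of log2(CPM + 1) over classes was 0.93 for Id1 and Id3, 0.84 for Id1 and Id2 and 0.81 for Id3 and Id4, and over the 9 classes other than erythroid cells and macrophages it was 0.34, 0.47 and 0.77. For Id2 and Id4 it was 0.70 over all WT classes and 0.55 over the 9. In KO the value went from 0.92 to 0.67 for Id1 and Id3, from 0.76 to 0.45 for Id1 and Id2, from 0.63 to 0.34 for Id3 and Id4 and from 0.75 to 0.69 for Id2 and Id4. For Id2 and Id3 it went from 0.82 to 0.18 in WT and from 0.67 to 0.23 in KO. For Id1 and Id4 it went from 0.69 to 0.37 in WT and from 0.65 to 0.42 in KO. Many genes outside the family were more alike over all WT classes. Of 8794 genes, Id3 ranked 223 and Id2 1581 for Id1, and Id1 ranked 2743 and Id3 3185 for Id2. For Id3, Id1 ranked 89 and Id2 1720, and for Id4 the nearest member was Id3 at 67. Among 8794 genes, those most like Id1 over the WT classes were Nedd4, a ubiquitin ligase (0.99 in WT, 0.95 in KO), Jmy (0.98, 0.91) and Mboat2 (0.98, 0.93). Those most like Id2 were Zfp281 (0.98, 0.86), Zfp629 (0.98, 0.91) and Gtf3c4 (0.97, 0.90), and those most like Id3 were Fgd1 (0.97, 0.91), Bmp1, a protease that is no BMP ligand (0.97, 0.93), and Lrrfip2 (0.97, 0.73). Id4 had no gene as close, Kirrel (0.89, 0.71), Ephb2 (0.89, 0.83) and Slc37a3 (0.89, 0.72) being the nearest. The values of these nearest genes were picked as the highest of 8794 in WT. They include the low blood classes, and were not taken without them.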

How the data were processed

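The authors dissociated AGM cells with collagenase, made 1 droplet library (10x 3′ v3) per genotype and counted reads with Cell Ranger 3.1.0 on mm10 (GRCm38). The deposited values are raw counts of UMIs per gene and barcode, without normalization. Barcodes with 2000 or more UMIs and under 10% mt- UMIs were used, and doublets were not removed. The 4 members and all marker and pathway lists were chosen with earlier results of these data known. UMIs were summed over the cells of a class (at least 3 of its markers with a UMI and more than any other class) and given as CPM with exact Poisson intervals, shares with exact binomial intervals, and KO over WT ratios with exact binomial intervals of the 2 counts, all at 95% and for counting error only. Classes needed 50 cells in both libraries, and 11 of 15 had them. With 1 library per genotype no test was made. Genes were called past 1.5-fold with at least 20 UMIs in the 2 libraries together. Cells were thinned to 2000 UMIs with a fixed seed. Named genes were the members, the pathway lists and the 3 genes per member with the highest correlation over WT classes, among genes with 20 CPM or more in 1 class and outside the marker lists. Total depth was 179743201 UMIs in WT and 174597654 in KO. There were 15 alternatives planned and 3 added after seeing the data. The procedures were tested on simulated data. Python 3.11.15, numpy 2.4.6, scipy 1.17.1, pandas 2.3.3, R 4.3.3 and edgeR 4.0.16 (TMM factors) were used. Sequences are from RefSeq (GRCm38.p6) and gene models from GENCODE.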

Additional observations from a re-analysis of the deposited data

Results flagged for a closer look

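Within 3 genes the class ratios of KO over WT pointed in opposite directions, with counting intervals that did not reach 0 on either side, and the difference between classes was not tested. Id2 was 0.50 higher on the log2 scale in KO macrophages and at -0.34 in the coelomic epithelium and gonadal ridge class, with 4 classes above 0 and 2 below. Id3 was 0.31 higher in mural cells and at -0.82 in autonomic neuron-like cells, with 3 classes above 0 and 8 below. Id4 was 1.43 higher in skeletal muscle cells and at -1.62 in endothelial cells, with 2 classes above 0 and 2 below. Id1 had no class with an interval below 0.

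The cells that entered no class, 3372 in WT and 3412 in KO, held Id UMIs that the class comparisons leave out. Their levels were 155 and 209 CPM of Id1 in WT and KO, 273 and 312 of Id2, 697 and 683 of Id3, and 20.2 and 23.5 of Id4.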

How the results depend on the processing

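Log2 values are given throughout, and where a value moved the cause was not tested unless fewer classes or cells were left. No paired analysis was possible because each genotype had 1 library. With under 5% mitochondrial UMIs (6 classes, 1856 WT and 1321 KO cells) the mean KO over WT ratio was 1.00 for Id1, 0.38 for Id2, 0.15 for Id3 (reversed) and 0.89 for Id4, and the highest over the median WT class 0.99 for Id2 and 0.79 for Id3. Without cells with markers of a second class (8 classes) the mean was 0.29, -0.061 (reversed), -0.23 and 0.37 in the same order. The 0.37 leaves out endothelial cells, which then had no Id4 UMI in KO. The level contrast was 0.57 for Id1, 1.23 for Id2 and 1.29 for Id3. The mural, coelomic and autonomic neuron-like classes were not among the 8, so these means and contrasts come from another set of classes. The single ratios were -0.25 for Id1 in erythroid cells and -0.46 for Id4 in muscle, both reversed, the latter on few UMIs. Without KO cells with a Pdgfrb UMI, and with such WT cells kept, the mean was 0.25 for Id1, -0.0033 for Id2 (reversed) and -0.22 for Id3. Id1 in erythroid cells was then -0.46 (reversed). Without the deepest 5% of cells the mean was 0.32 for Id1 and 0.020 for Id2, and the contrast 0.98 for Id3 and 1.97 for Id4. With thinned cells the mean was 0.33, 0.025 and -0.14 for Id1 to Id3 and the contrast 1.07 for Id3. With free RNA subtracted the mean was 0.46 for Id1 and -0.25 for Id3, and the contrast 0.92 for Id2 and 0.95 for Id3. The mean of per-cell CPM gave 0.32 for the Id1 ratio and contrasts of 0.22 for Id1 and 0.96 for Id2, TMM a contrast of 0.27 for Id1, and 4 markers per class 1.95 for Id4. Leaving out macrophages gave 0.32 for Id1 and 0.035 for Id2, and the coelomic class 0.12 for Id2 and -0.12 for Id3. The Id3 mean was -0.21 without endothelial cells, -0.11 without autonomic neuron-like cells, -0.22 without mural cells and -0.20 without body wall mesenchyme. The mean correlation was 0.0496 in WT and 0.060 in KO at 1000 UMIs, and 0.212 and 0.243 at 10000. Of 447 single class ratios under the alternatives, 409 kept their direction, as did 80 of 88 means. Of 22 means per gene, 22 did so for Id1, 20 for Id2, 21 for Id3 and 17 for Id4. Many of these means only leave 1 class out of the same ratios, which can move a mean little, so these counts tell little about how firm a direction is. The level contrast takes the highest class anew in each setting and cannot be negative, so its direction tells nothing. The share of genes past 1.5-fold either way was 15.5%, 24.8% with no UMI minimum and 5.80% with at least 200 UMIs.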

Other observations

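The classes with fewer than 50 cells also held Id UMIs, with wide counting intervals. In the blood class defined by progenitor, megakaryocyte and mast cell markers, with 14 WT and 17 KO cells, Id2 was at 98.3 CPM in WT (68.1 to 137) and 215 in KO (174 to 262), and Id1 at 69.4 (44.4 to 103) and 140 (107 to 179). In the nephric and gut epithelium class, with 16 and 20 cells, Id3 was at 592 CPM in WT (536 to 651) and 367 in KO (321 to 419), and Id1 at 155 and 167. In the progenitor blood class 11 of the 14 WT cells and 16 of the 17 KO cells had UMIs of at least 2 markers of a second class.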
